A study of Mus musculus with 27 samples.

Results

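The late end of the course that hepatic stellate cells (HSCs) ran after 1 injection of carbon tetrachloride (CCl4) was compared with its early end, acute 7 d against acute 24 h. The comparison rested on 7 of the 27 libraries of the series, 4 from 7 d and 3 from 24 h, taken by their labels, and covered all genes. RNA was sequenced in bulk from HSCs of male Balb/c mice that were 10 to 12 weeks old at injection and received CCl4 in mineral oil into the peritoneum, dosed at 0.5 µL for each g of body mass. Livers were perfused, HSCs were sorted by the ultraviolet fluorescence of their stored retinoid, and RNA was taken with no culture step in between. For reference, 4 libraries of acute 72 h mice (same injection) and 4 of healthy mice were used, the latter of the same age, strain and sex but not injected, so that no group received oil alone. The chronic 24 h and chronic 72 h mice (4 libraries each) were 8 to 10 weeks old and received such injections semi-weekly over a course of 4 weeks, after which these times were counted. Each library was a separate experiment according to the methods of the study, so p-values measure the spread between such experiments.

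HSCs sit between hepatocytes and sinusoidal endothelium and store vitamin A as retinyl esters in lipid droplets. After injury they pass through an initiation phase, with rapid changes in transcription, into a perpetuation phase with contraction, proliferation, chemotaxis and secretion of fibrillar collagen, and can later revert. CCl4 is turned into a reactive radical by the cytochrome Cyp2e1 of pericentral hepatocytes, and a liver hit by a single dose clears the dead tissue with macrophages and then heals.

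The 7 libraries were close in depth, with 11.8 M to 12.3 M counts at 24 h and 11.6 M to 13.1 M at 7 d, while chronic 24 h (6.95 M to 13.0 M) and chronic 72 h (6.52 M to 13.0 M) held libraries of lower depth. The 9 pairs of replicates within both groups had Pearson correlations of log2 CPM across genes from 0.936 to 0.96 and their counts varied 32.4 to 66.1 times more than counting error alone would give, so no library was a copy of another. CPM here means counts scaled to a common total (counts per M), after trimmed-mean scaling of the totals. In the principal components of the 500 most variable genes over the 15 healthy and single-injection libraries, the first component (34.7% of the variance) placed 24 h at a mean score of -56.0 ± 4.2 (SD, n = 3) and 7 d at 37.8 ± 3.7 (SD, n = 4). Acute 72 h lay between them at 11 ± 12.5 (SD, n = 4) and healthy at -6.7 ± 14.2 (SD, n = 4), while the second component (15.8%) held healthy libraries (-35.1 ± 11.5, SD, n = 4) away from all injected ones.

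**Figure D1:**
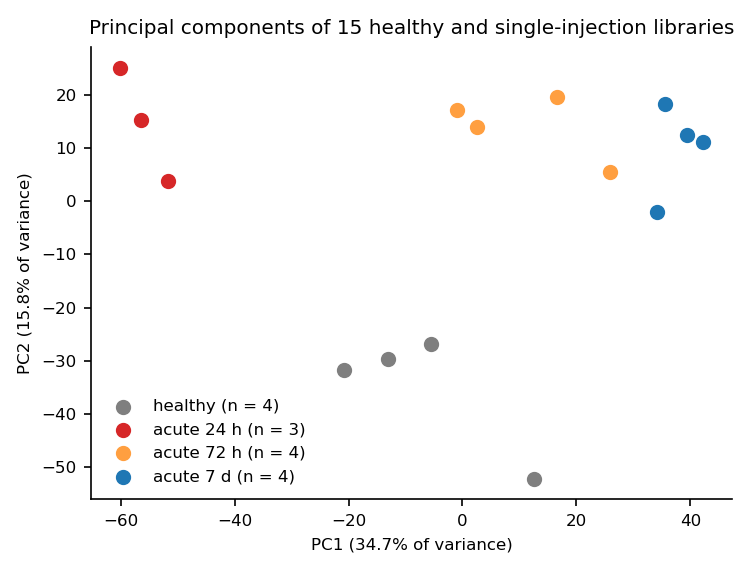
Scores of the 15 healthy and single-injection libraries on the first (x axis) and second (y axis) principal component of log2 CPM, each axis with its share of variance, 1 point per library. The 3 acute 24 h libraries stand at the left end and the 4 acute 7 d libraries at the right end, with acute 72 h in between and healthy libraries lower on the second component.

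Between 24 h and 7 d many genes of the initiatory program, the cytoskeleton and ribosome assembly fell, while many fibrillar collagens, mitotic genes, clock output genes and markers of macrophages, B cells and hepatocytes rose. Of 18758 genes tested with edgeR's quasi-likelihood test, 3333 (17.8%) were higher at 7 d and 1734 (9.24%) were lower, where a call needed an adjusted p (Benjamini-Hochberg) under 0.05 together with more than 2-fold change. All adjusted p-values below come from that test. The libraries of the groups did not overlap for 5086 genes (27.1%) that lay higher and 4679 (24.9%) that lay lower at 7 d. The rises were the larger changes. Among the genes that rose the median log2 fold change was 2.72 and 2169 (65.1%) passed 4-fold, while among those that fell the median was -1.51 and 470 (27.1%) passed 4-fold. Of the genes that rose, 573 had 3 counts or fewer in every 24 h library, 348 of them none, and of those that fell 95 had 3 counts or fewer in every 7 d library. Protein-coding genes were called higher in 21.4% and lower in 8.09%, whereas 59 (3.34%) of 1768 processed pseudogenes were higher and 272 (15.4%) lower.

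For most called genes acute 72 h lay in the middle of the course. For 82.4% of the genes that rose and 87.0% of those that fell the acute 72 h mean lay between the other means, against 56.3% of all genes tested. Another 14.7% of the genes that rose had their acute 72 h mean above both, against 25.3% of all genes tested. The healthy mean lay between the 24 h and 7 d means for 76.6% of the genes that rose, against 43.2% of all genes tested. It lay between them for 63.3% of those that fell. For 26.0% of those that fell it lay below both, near the 25.9% of all genes tested. These shares are descriptions, since the 24 h and 7 d means define the range.

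**Figure D2:**
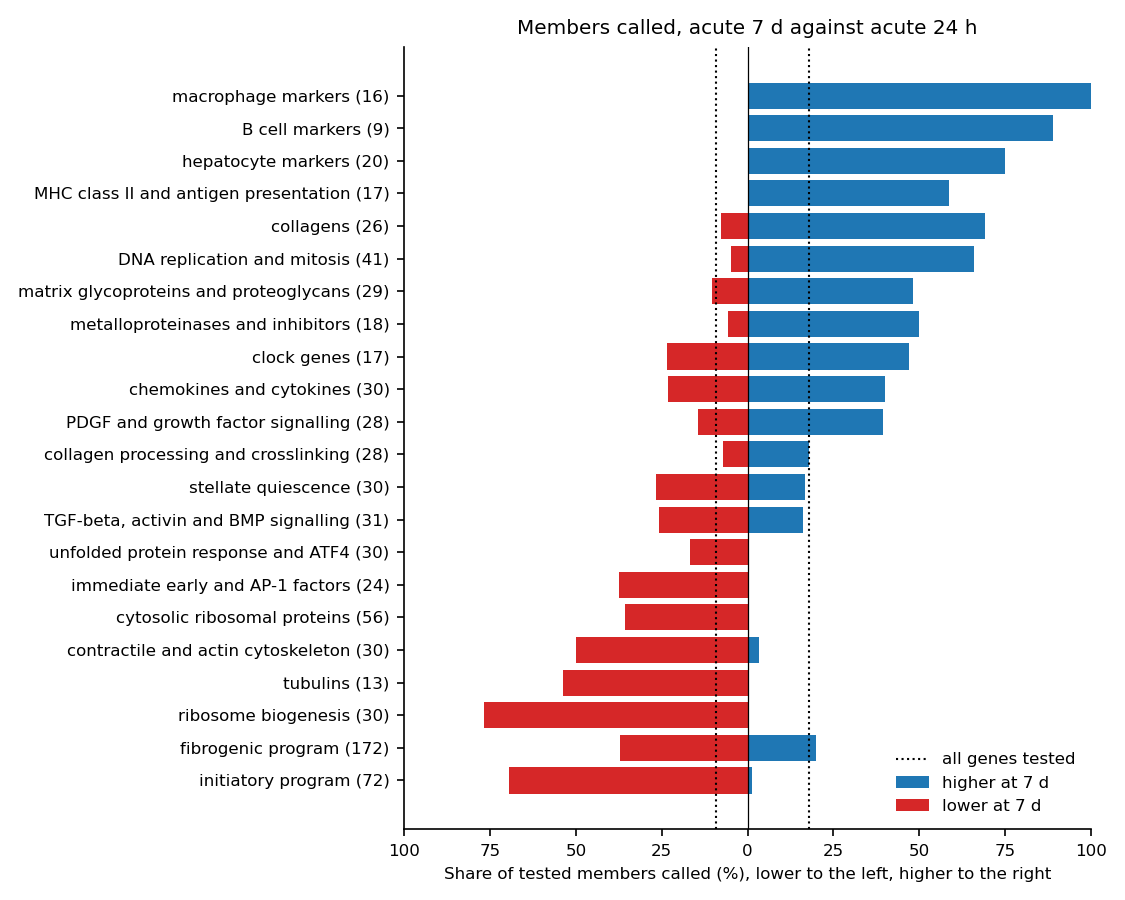
Share of the tested members of 22 gene lists (y axis, number tested in brackets) that were called higher (right, blue) or lower (left, red) at acute 7 d against acute 24 h, in percent on the x axis, with dotted lines at the shares of all genes tested (17.8% and 9.24%). All 16 macrophage markers and 18 of 26 collagens were higher, and 23 of 30 ribosome biogenesis genes were lower.

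The largest falls included genes that were far above healthy at 24 h. Il11, which encodes interleukin 11, a cytokine of the gp130 family (chr7:4772373-4782859, minus strand), stood at 132, 131 and 128 CPM in the 24 h libraries and at 1.05, 0.492, 0.644 and 0.92 CPM in the 7 d libraries. The 24 h libraries were thus close together and the groups were far apart, and the log2 fold change was -7.37 ± 0.56 (SE, adjusted p = 3.04e-09). At 72 h the mean was already 3.09 CPM, and in healthy HSCs it was 0.234 CPM. Alpl, tissue-nonspecific alkaline phosphatase (chr4:137741733-137796384, minus strand), went from 2230, 2090 and 2050 CPM to 51.3, 47.7, 33.1 and 31.7 CPM, and the log2 fold change was -5.70 ± 0.39 (SE, adjusted p = 6.69e-10). Its 7 d libraries did not overlap with those of 24 h and had a mean below that of healthy HSCs (62.6 CPM), with a log2 fold change over healthy of -0.61 (adjusted p = 0.166).

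The genes with the largest falls among the better expressed ones also included Fosl1, an AP-1 subunit of the Fos family, at 111, 87.2 and 90.1 CPM against 0.566, 1.07, 1.13 and 2.07 CPM (log2 fold change -6.30 ± 0.73 SE, adjusted p = 6.98e-07). Tnfrsf12a, the receptor of the cytokine TWEAK, fell from 394, 370 and 396 CPM to 4.77, 8.12, 10.7 and 18.7 CPM (log2 fold change -5.19, adjusted p = 4.58e-07). Ankrd1 and Ccn2, which are targets of the mechanosensitive coactivators YAP and TAZ, fell by 5.42 and 3.73 on the log2 scale. Ccn2, connective tissue growth factor, had 5500, 3240 and 4820 CPM at 24 h and 45.3, 370, 513 and 431 CPM at 7 d, so that replicate 1 lay well below the other 7 d libraries. Mt2 and Mt1, the metallothioneins that bind zinc and copper, fell by 5.52 (adjusted p = 0.000435) and 3.55 (adjusted p = 1.79e-07) on the log2 scale, with Mt2 at 1780, 923 and 805 CPM against 39.7, 19.4, 23.9 and 18.7 CPM.

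Cdkn1a, the cell cycle inhibitor p21, fell by 4.03 on the log2 scale (SE 0.79, adjusted p = 0.000318), but its 24 h libraries were uneven. Replicate 2 held 346 CPM and the other replicates 41.1 and 33.9 CPM, against 11.1, 5.58, 8.13 and 9.5 CPM at 7 d. The other genes with the largest falls were Tceal8, Rpl32 and the neighbouring gene models Gm10800 and Gm10801. Tceal8 was at 170, 175 and 191 CPM at 24 h and at most 0.82 CPM at 7 d (log2 fold change -8.10 ± 1.95 SE, adjusted p = 0.00211), yet at 72 h it stood at 207 CPM in replicate 2 and at 1.24, 1.06 and 1.55 CPM in the others. Rpl32, a ribosomal protein that all cells use, was at 141, 96.2 and 93.1 CPM against 5.74, 5.09, 4.75 and 4.21 CPM. Such steps between libraries of 1 group, or near absence of a gene that every cell needs, leave the counts of Tceal8 and Rpl32 uncertain, and reads of Gm10800 and Gm10801 may be shared between them.

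The initiatory program, 72 genes that the study chose as early genes on these samples, was at 15100 to 19500 summed CPM at 24 h and at 3580 to 5030 at 7 d. At 72 h the sum was 5930 to 8350 CPM and in healthy HSCs 1700 to 2420 CPM, so the 7 d libraries lay above the healthy ones and below those of acute 24 h and 72 h. Of its 72 members 50 fell and 1 rose, with a median log2 fold change of -1.68 against 0.02 for all genes tested. Since the acute 24 h libraries served to choose the list, its direction is not independent evidence. For 40 of the 50 members that fell (80.0%) the healthy mean lay below both means, against 25.9% of all genes tested. Members were chosen as higher at acute 24 h than in healthy HSCs, so this share is no independent evidence either. The only member that rose was Fhl2, a LIM-domain protein of the actin cytoskeleton, at 31, 17.5 and 15.1 CPM against 50.5, 66.9, 64.5 and 85.1 CPM (log2 fold change 1.65 ± 0.48 SE, adjusted p = 0.00778). Members that fell included the growth factor gene Ereg (epiregulin, log2 fold change -3.58, adjusted p = 5.1e-06), at 592, 437 and 769 CPM against 43.8, 45.7, 50.8 and 59.5 CPM, and the stromelysin Mmp3.

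Of 24 immediate early and AP-1 genes 9 fell (37.5%) and none rose, against 9.24% and 17.8% of all genes tested (median -0.82). The number that fell was 6 to 11 when single libraries were left out and 2 in a test against a 2-fold minimum. The sum of the list was 47400 to 66500 CPM at 24 h and 26400 to 44900 CPM at 7 d, against 51500 to 65900 CPM in healthy HSCs. Thus the list was not above healthy at 24 h, and every 7 d library lay below every healthy one. Ier3, an early response gene that modulates cell death, went from 1010, 1360 and 1080 CPM to 194, 133, 222 and 341 CPM (log2 fold change -2.37, adjusted p = 5.7e-06). Dusp1, a phosphatase of MAP kinases, went from 3830, 5120 and 3920 CPM to 684, 1480, 2900 and 2550 CPM. Its log2 fold change of -1.17 (adjusted p = 0.0026) came to -0.94 without 7 d replicate 1, below the 2-fold minimum.

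**Figure D3:**
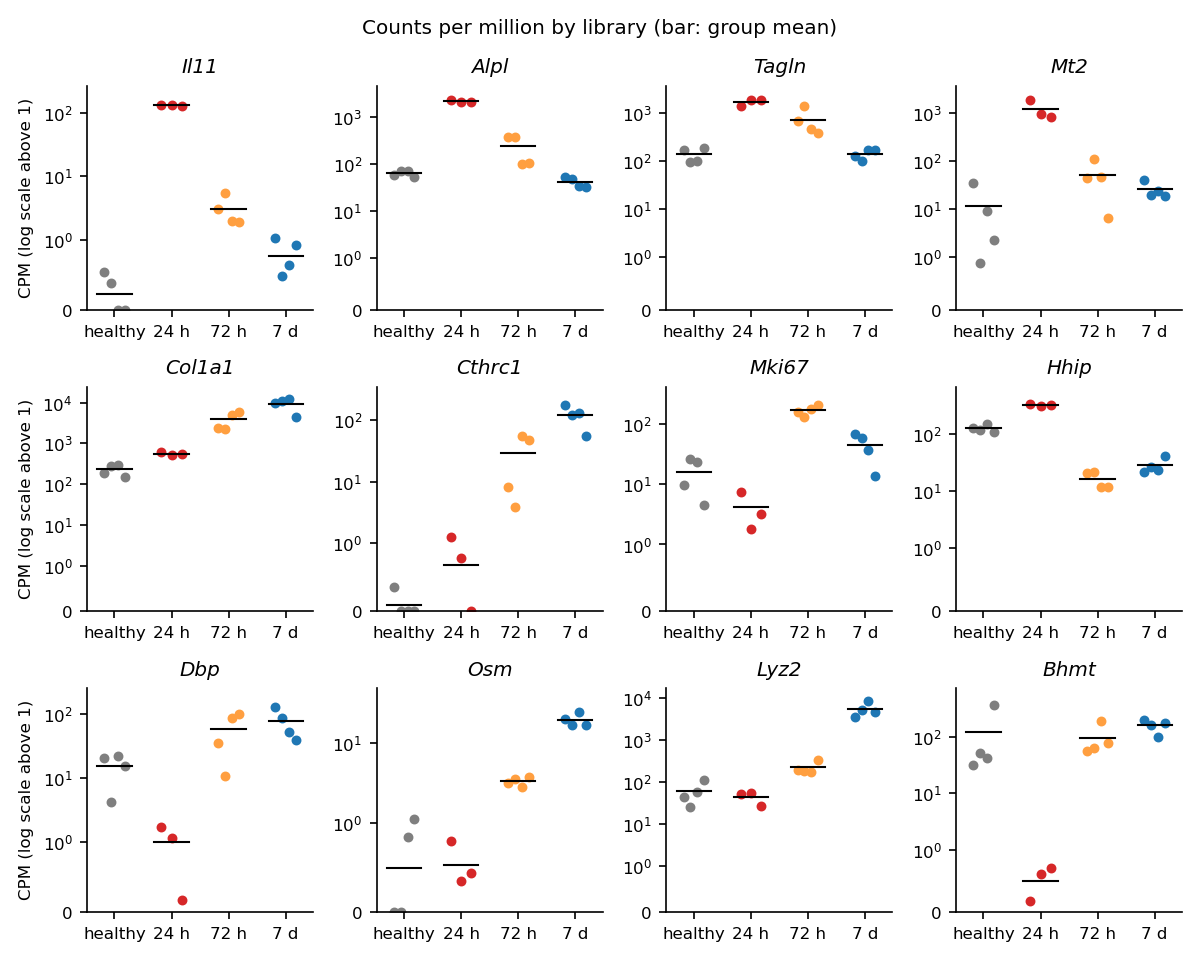
CPM of 12 genes in healthy, acute 24 h, acute 72 h and acute 7 d libraries (x axis), 1 point per library with a bar at the group mean; the y axis is logarithmic above 1 CPM and linear below. Il11, Alpl, Tagln, Mt2 and Hhip were lower at 7 d than at 24 h in every library, and the other 7 genes were higher.

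Many cytoskeletal genes fell as well. Contractile and actin genes had a summed level of 20600 to 21900 CPM at 24 h and of 7740 to 8500 CPM at 7 d, below the 9880 to 11400 CPM of healthy HSCs. Of 30 members 15 fell and 1 (Fhl2, above) rose, with a median log2 fold change of -1.18. In a test against a 2-fold minimum 7 members fell. Tagln, transgelin (chr9:45929619-45936058, minus strand), an actin-binding protein of smooth muscle and myofibroblasts, was at 1410, 1830 and 1830 CPM against 129, 101, 168 and 167 CPM. No 7 d library came near those of 24 h, the log2 fold change was -3.58 ± 0.52 (SE, adjusted p = 1.12e-05), and the log2 fold change of 7 d over healthy HSCs was 0.02 (adjusted p = 0.979). Myl9, a regulatory light chain of myosin, fell by 3.22 (adjusted p = 8.46e-05), Flna, the actin crosslinker filamin A, fell by 1.67 and the intermediate filament gene Des, desmin, fell by 1.55 on the log2 scale.

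Acta2, the smooth muscle actin used as the classical marker of activated HSCs, did not pass the test in this comparison. It stood at 301, 253 and 150 CPM at 24 h and at 69.8, 151, 141 and 81.4 CPM at 7 d, so the groups overlapped, and the log2 fold change was -1.08 ± 0.73 (SE, adjusted p = 0.245). In a fit of only the 7 libraries it passed (-1.06, adjusted p = 0.037). Acta2 was still above healthy HSCs (mean 3.13 CPM) at 7 d (log2 fold change 5.13, adjusted p = 9.31e-05).

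Tubulin genes fell in 7 of 13 cases (4 in a test against a 2-fold minimum) and rose in none (median -1.40). Their sum went from 4890 to 5600 CPM at 24 h down to 1170 to 1610 CPM at 7 d. Tubb6 had 1500, 1370 and 1270 CPM at 24 h and 212, 187, 245 and 200 CPM at 7 d (log2 fold change -2.71 ± 0.21 SE, adjusted p = 3.27e-09). Tubb4b and Tuba1b, further tubulin subunits of microtubules, had log2 fold changes of -2.53 and -1.76. Among 24 targets of YAP and TAZ 5 fell (20.8%) and 2 rose (8.33%), against 9.24% and 17.8% of all genes tested (median -0.25).

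Of all 40 lists, ribosome biogenesis, the assembly of ribosomal subunits in the nucleolus, had the highest share of members that fell. Of its 30 genes 23 (76.7%) fell and none rose, with a median log2 fold change of -1.39. The number that fell was 21 to 24 when single libraries were left out and 12 in a test against a 2-fold minimum. The sum of the list went from 1660 to 2110 CPM at 24 h to 654 to 849 CPM at 7 d. In healthy HSCs it was 861 to 882 CPM. Srm, spermidine synthase, went from 173, 161 and 174 CPM to 26.8, 25.7, 39.2 and 37.4 CPM (log2 fold change -2.39 ± 0.28 SE, adjusted p = 9.15e-07). Rrp12, which matures ribosomal subunits, fell by 3.26 (adjusted p = 0.000337), and Nop56 and Fbl (fibrillarin), core proteins of the snoRNPs that guide methylation of ribosomal RNA, had log2 fold changes of -2.01 and -1.81. The acute 72 h mean lay between those of 24 h and 7 d for all 23.

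Of 56 genes of cytosolic ribosomal proteins 20 fell (35.7%, against 9.24% of all genes tested) and none rose, with a median of -1.02. The summed level was 2890 to 3460 CPM at 24 h and 1550 to 1770 CPM at 7 d. In healthy HSCs it was 812 to 1360 CPM, so every 7 d library still lay above every healthy one. The number that fell was 13 without 24 h replicate 1, also 13 with library size alone as the scale, and 4 in a test against a 2-fold minimum. Rpl32, whose counts are uncertain (above), is among the 20. Of 41 genes of oxidative phosphorylation 3 fell (7.32%) and none rose (median -0.47), against 9.24% and 17.8% of all genes tested.

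Among 30 genes of the unfolded protein response and of ATF4, the transcription factor of the integrated stress response, 5 fell (16.7%) and none rose (median -0.54). The shares of all genes tested were 9.24% and 17.8%. The 5 that fell were Atf4 and 4 of its known targets in amino acid and folate metabolism. The 25 members that were not called included Ddit3 (log2 fold change 0.04), Trib3 (-0.54), Chac1 (-0.78) and Phgdh (-2.51, adjusted p = 0.228), so the list did not fall as a whole. Atf4 itself was at 413, 476 and 446 CPM against 136, 99.7, 150 and 192 CPM (log2 fold change -1.62 ± 0.22 SE, adjusted p = 4.18e-06). Asns, asparagine synthetase, fell by 3.59 (adjusted p = 0.0195), Mthfd2, a mitochondrial folate enzyme, fell by 2.67, Psat1, an enzyme of serine synthesis, fell by 1.67, and Slc7a11, the cystine transporter, fell by 1.58 on the log2 scale. Asns lost its call without 24 h replicate 1 (adjusted p = 0.104). Hspa5, the chaperone BiP of the endoplasmic reticulum, had a log2 fold change of -0.88 (adjusted p = 0.0482), short of 2-fold, and was called without 7 d replicate 4 (-1.15, adjusted p = 0.0164). Without that library the number of members that fell was 9.

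The endoplasmic reticulum stress element (ERSE), searched on both strands of RefSeq promoters (GRCm38.p6, 250 bases before to 50 after the start), was found in 7 of the 28 members with a promoter (25%) and in 0.137% of all 27025 genes with one. None of the 5 genes that fell held it, and 7 of the 23 matched members that were not called did (30.4%).

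Most collagen genes rose. Of 26 collagen genes 18 rose and 2 fell, with a median log2 fold change of 2.24, and their sum went from 8850 to 12400 CPM at 24 h to 36000 to 59600 CPM at 7 d. At 72 h it was 20100 to 38100 CPM and in healthy HSCs 7450 to 9900 CPM. Markers of mesothelial cells and portal fibroblasts, which also make collagens, went from 70.1 to 118 CPM at 24 h to 532 to 820 CPM at 7 d (11 of 13 rose, with Msln and Lrrn4 at 0 at 24 h), and their part in the collagen rise was not tested. Col1a1, the alpha 1 chain of type I collagen (chr11:94936224-94953042, plus strand), had 616, 528 and 551 CPM at 24 h and 10000, 10900, 12000 and 4450 CPM at 7 d. Replicate 4 was the lowest of the 7 d libraries but stood far above every 24 h library, and the log2 fold change was 4.05 ± 0.43 (SE, adjusted p = 2.21e-07). Col3a1, the chain of type III collagen (chr1:45311538-45349706, plus strand), went from 2730, 1520 and 2060 CPM to 26700, 27800, 26000 and 19200 CPM (log2 fold change 3.57 ± 0.31 SE, adjusted p = 1.4e-08).

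Healthy HSCs give a reference for these levels. The log2 fold change of Col1a1 over healthy was 1.29 (adjusted p = 0.00755) at 24 h and 5.34 (adjusted p = 1.32e-08) at 7 d. For Col3a1 the values were -0.34 (adjusted p = 0.359) and 3.23 (adjusted p = 2.13e-08), and for Col1a2, the partner chain of Col1a1, -0.34 (adjusted p = 0.357) and 2.98 (adjusted p = 7.7e-08). Col1a2 had 953, 729 and 795 CPM at 24 h and 9020, 9590, 9470 and 4980 CPM at 7 d, so replicate 4 was again the lowest of its group. All 18 collagens that rose had their acute 72 h mean between those of 24 h and 7 d.

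Among the less abundant collagens, Col15a1, a basement membrane collagen, went from 7.39, 2.17 and 3.6 CPM to 78.6, 71.8, 76.9 and 30.2 CPM (log2 fold change 3.87, adjusted p = 4.58e-07). Col4a5, a basement membrane chain, rose by 6.82 from at most 0.623 CPM to 22.6, 42.5, 48.7 and 37.2 CPM. Col11a1, a fibrillar chain that sits in heterotypic fibrils, rose by 5.61 and the microfibrillar chain Col6a3 by 3.20 on the log2 scale. The 2 collagens that fell were Col4a1 and Col4a2, the main chains of basement membrane collagen IV, which are transcribed from a shared promoter region. Col4a1 had 3910, 2620 and 4120 CPM at 24 h and 1340, 1630, 1440 and 902 CPM at 7 d (log2 fold change -1.42, adjusted p = 0.000143), and Col4a2 had a log2 fold change of -1.17 (adjusted p = 9.8e-05).

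Of 28 genes of collagen processing and crosslinking 5 rose (17.9%) and 2 fell (7.14%), close to the shares of all genes tested (17.8% and 9.24%), and the median was 0.07. Without 24 h replicate 2, 3 rose. Lox, lysyl oxidase, which crosslinks collagen and elastin, went from 176, 68.6 and 120 CPM to 482, 445, 376 and 216 CPM (log2 fold change 1.64, adjusted p = 0.00771), but missed the threshold without 24 h replicate 2 (adjusted p = 0.0534). Bmp1, the protease that removes the C-terminal propeptide of procollagen, rose by 1.59 (adjusted p = 1.69e-07) and P4ha3, a subunit of prolyl 4-hydroxylase, by 5.10 (adjusted p = 0.00113) on the log2 scale. Lox was already at 4.03 over healthy on the log2 scale at 24 h (adjusted p = 1.63e-06).

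Of 29 matrix glycoproteins and proteoglycans 14 rose and 3 fell (median 1.10). Cthrc1, a secreted glycoprotein of repairing tissue with a collagen triple helix repeat (chr15:39076932-39087121, plus strand), had 1.25, 0.781 and 0 CPM at 24 h and 175, 121, 133 and 56.5 CPM at 7 d (log2 fold change 7.46 ± 1.16 SE, adjusted p = 2.68e-05). Its mean was 29.3 CPM at 72 h. Spp1, osteopontin, which macrophages and cholangiocytes also make, went from 95.5, 77.4 and 86.4 CPM to 3610, 4770, 2430 and 717 CPM, with 7 d replicate 4 lowest (log2 fold change 5.06 ± 0.55 SE, adjusted p = 2.8e-07). Fmod, the collagen-binding fibromodulin, rose by 5.54, Fbln5, the elastic fibre protein fibulin 5, by 4.73, Eln, elastin, by 3.40, and Fn1, fibronectin, by 2.15 on the log2 scale. Thbs1, thrombospondin 1, which binds and activates latent TGF-beta, fell by 1.93 (adjusted p = 8.99e-05).

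Fbln5 and Mmp2 had been below healthy at 24 h, with log2 fold changes over healthy of -4.15 (adjusted p = 7.78e-07) and -1.94 (adjusted p = 4.68e-06). At 7 d the log2 fold change over healthy was 0.58 for Fbln5 (adjusted p = 0.28) and 1.42 for Mmp2 (adjusted p = 8.37e-05).

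Several matrix-degrading enzymes also rose. Of 18 metalloproteinases and inhibitors 9 rose and 1 fell (median 1.32). Mmp2, gelatinase A (chr8:92827291-92853420, plus strand), went from 122, 92.8 and 70 CPM to 730, 797, 1140 and 1240 CPM (log2 fold change 3.36 ± 0.28 SE, adjusted p = 7.71e-09). Mmp12, macrophage elastase, rose by 4.44 and Mmp13, a collagenase, by 3.40 on the log2 scale. Mmp3 was the 1 gene that fell, from 100, 68.5 and 77.4 CPM to 6.23, 7.05, 4.27 and 3.53 CPM (log2 fold change -3.96, adjusted p = 1.48e-05).

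Of the tissue inhibitors of metalloproteinases, Timp2 rose by 1.16 on the log2 scale (adjusted p = 5.78e-05). Timp1 had 102, 93.1 and 91 CPM at 24 h and 86.8, 54, 22.7 and 12 CPM at 7 d. All 7 d libraries of Timp1 lay lower but over a wide range, and the log2 fold change of -1.12 ± 0.83 (SE, adjusted p = 0.294) did not pass the test.

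The fibrogenic program, which the study chose on chronic, recovered and healthy libraries of this series, did not move as 1 list. Of its 172 tested members 34 rose (19.8%) and 64 fell (37.2%), against 17.8% and 9.24% of all genes tested (median log2 fold change -0.62). Its sum was 36200 to 45300 CPM at 24 h and 22100 to 38400 CPM at 7 d, and these ranges overlapped. In healthy HSCs it was 6820 to 8290 CPM. The healthy mean lay below both means for 27 of the 34 members that rose (79.4%) and for 55 of the 64 that fell (85.9%). The share of all genes tested was 25.9%. Since members were chosen as higher in chronic than in healthy libraries, these shares are no independent evidence. Its members Col1a1, Cthrc1 and Mmp12 rose, as above, whereas Tagln, Alpl and Fosl1 fell, as did Il11, Ereg and Tnfrsf12a, which also belong to the initiatory program.

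Most proliferation genes rose from 24 h to 7 d but had their highest group mean in between. Of 41 genes of DNA replication and mitosis 27 rose and 2 fell, with a median log2 fold change of 2.07, and all 27 that rose had an acute 72 h mean above both. The summed level was 640 to 668 CPM at 24 h, 1870 to 2630 CPM at 72 h and 633 to 935 CPM at 7 d, so on this sum the 24 h and 7 d ranges overlapped. Healthy HSCs had 995 to 1230 CPM, above every 24 h and 7 d library. However, Ccnd2, 1 of the 2 members that fell (below), made up most of the sum at 24 h. For 24 of the 27 members that rose the healthy mean lay between the 24 h and 7 d means. It lay below both for 2 and above both for 1. Mki67, the proliferation antigen Ki-67 (chr7:135689784-135716361, minus strand), had 7.3, 1.82 and 3.25 CPM at 24 h and 67.5, 59.5, 37.7 and 13.9 CPM at 7 d, with replicate 4 lowest (log2 fold change 3.43 ± 0.71 SE, adjusted p = 0.000546). Its mean was 168 CPM at 72 h and 15.9 CPM in healthy HSCs.

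Top2a, topoisomerase 2 alpha, which untangles sister chromatids, went from 0.712, 0.868 and 0.0878 CPM to 11.2, 10.1, 9.5 and 2.15 CPM, below the 41.4 CPM mean of 72 h (log2 fold change 3.86 ± 0.65 SE, adjusted p = 6.59e-05). The mitotic cyclins Ccnb1 and Ccnb2 rose by 3.81 and 4.11 and the mitotic kinase Plk1 by 3.61 on the log2 scale. Bub1, a kinase of the spindle checkpoint, had no count in any 24 h library and 3.23, 1.48, 1.05 and 0 CPM at 7 d, at least 5.46-fold higher on average against 3 counts per 24 h library (adjusted p = 0.0103), although replicate 4 overlapped with 24 h. In each of these genes 7 d replicate 4 was the lowest of its group. The 2 members that fell were the D-type cyclins of the G1 phase. Ccnd2 had 340, 390 and 417 CPM against 137, 130, 172 and 249 CPM (log2 fold change -1.15, adjusted p = 0.00327), and Ccnd1 a log2 fold change of -1.02 (adjusted p = 0.00607) that lost its call in 9 of 18 alternatives, for example at -0.82 without 7 d replicate 2.

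The promoters of Mki67 and Top2a show the letters that mitotic promoters often share. The core of the cell cycle genes homology region, TTTGAA, through which the DREAM and MuvB complexes repress and activate late cell cycle genes, was searched on both strands of RefSeq promoters. Of the 27 members that rose 22 had a promoter, and 13 of these (59.1%) held it, against 2 of 10 matched members that were not called (20%) and 20.2% of all 27025 genes (17.9% of 32851 promoters). The match is a description of the letters, not of a site in use. The 250 bases before the start are given 5′ to 3′ for Mki67 (chr7:135716380-135716629, minus strand) and Top2a (chr11:99024190-99024439, minus strand), from RefSeq on GRCm38.p6, with the matches in capitals, which in Top2a include 1 on the opposite strand.
Mki67: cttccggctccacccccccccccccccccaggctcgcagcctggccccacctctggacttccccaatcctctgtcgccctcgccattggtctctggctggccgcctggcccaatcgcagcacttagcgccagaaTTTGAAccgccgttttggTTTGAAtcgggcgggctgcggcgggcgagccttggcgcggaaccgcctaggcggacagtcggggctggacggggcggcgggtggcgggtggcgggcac
Top2a: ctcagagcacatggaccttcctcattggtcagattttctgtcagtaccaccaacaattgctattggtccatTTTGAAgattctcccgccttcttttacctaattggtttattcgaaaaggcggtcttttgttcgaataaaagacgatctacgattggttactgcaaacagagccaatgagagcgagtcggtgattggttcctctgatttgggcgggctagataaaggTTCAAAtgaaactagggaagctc

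Of 25 p53 targets 7 rose (28.0%) and 3 fell (12.0%), against 17.8% and 9.24% of all genes tested (median 0.48). Besides Cdkn1a, which fell, Pmaip1, the proapoptotic BH3 protein Noxa, rose by 4.30 on the log2 scale (adjusted p = 6.28e-07), from 2.05, 2.17 and 0.79 CPM to 22.9, 32.6, 32 and 45.1 CPM. Sesn1, a stress-inducible inhibitor of mTORC1, went from 12.2, 11.8 and 12.5 CPM to 77.3, 88.3, 88.5 and 75.5 CPM, with little spread in either group (log2 fold change 2.76 ± 0.24 SE, adjusted p = 1.39e-08).

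Genes of HSC quiescence did not return together. Of 30 members 5 rose (16.7%) and 8 fell (26.7%), against 17.8% and 9.24% of all genes tested. The median log2 fold change was -0.05, and 3 members rose without 24 h replicate 1. The summed level was 22100 to 28700 CPM at 24 h and 16600 to 21000 CPM at 7 d, against 45100 to 52900 CPM in healthy HSCs. Hhip, a decoy receptor for hedgehog ligands (chr8:79965851-80058006, minus strand), went from 334, 309 and 322 CPM to 21.8, 26.7, 23.1 and 41.1 CPM (log2 fold change -3.51 ± 0.47 SE, adjusted p = 3.91e-06). Healthy HSCs had a mean of 126 CPM, so Hhip was above healthy at 24 h (log2 fold change 1.35, adjusted p = 0.0209) and below it at 7 d (-2.16, adjusted p = 0.000757).

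Hgf, Ecm1 and Fcna, other abundant genes of quiescent HSCs, also fell and lay below healthy at 7 d. Hgf, hepatocyte growth factor, the mitogen that HSCs supply to hepatocytes, had 1570, 1410 and 1960 CPM at 24 h and 426, 571, 265 and 490 CPM at 7 d (log2 fold change -1.91, adjusted p = 2.02e-05), and its log2 fold change of 7 d over healthy was -1.42 (adjusted p = 0.000602). Ecm1, extracellular matrix protein 1, fell by 1.85 and Fcna, the lectin ficolin A, fell by 2.43 on the log2 scale. Their log2 fold changes of 7 d over healthy were -2.31 (adjusted p = 1.65e-05) and -3.30 (adjusted p = 8.9e-07). In the opposite direction, Pparg, a nuclear receptor of adipogenic and quiescent HSCs, went from 0, 0.521 and 0.439 CPM to 5.42, 5.82, 10.5 and 7.05 CPM (log2 fold change 4.44, adjusted p = 0.000647). Dpt, the matrix protein dermatopontin, rose by 2.99 (adjusted p = 1.54e-06), from 42.8, 24.3 and 26 CPM to 264, 224, 260 and 234 CPM.

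The identity of the sorted cells was checked on 12 HSC identity genes, of which 2 rose and 3 fell, with a summed level of 19700 to 32100 CPM at 24 h and 17700 to 21300 CPM at 7 d. In healthy HSCs it was 24300 to 44900 CPM, so every 7 d library lay below every healthy one. Lrat, the enzyme that esterifies retinol for storage, had 1300, 1080 and 1070 CPM at 24 h and 1370, 1800, 683 and 1410 CPM at 7 d, with overlapping groups and a log2 fold change between groups of 0.20 ± 0.34 (SE, adjusted p = 0.671). Lhx2, a transcription factor that restrains HSC activation, rose by 1.43, while the intermediate filament gene Nes, nestin, fell by 2.42 on the log2 scale. Of 20 genes of retinoid handling 5 rose and 3 fell (median 0.13). Dhrs3, which reduces retinal to retinol, went from 19.8, 25.6 and 24 CPM to 204, 371, 169 and 234 CPM (log2 fold change 3.40 ± 0.35 SE, adjusted p = 1.34e-07). Cyp26a1, which degrades retinoic acid, had no count at 24 h and 1.78, 2.71, 0.805 and 1.92 CPM at 7 d, at least 6.83-fold higher. Plin2, which coats lipid droplets, fell by 1.55 (adjusted p = 0.000137). Rbp4, the retinol carrier of plasma, which hepatocytes secrete, rose by 3.66 on the log2 scale, alongside the hepatocyte genes below.

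Clock genes moved in both directions. Of 17 members 8 rose and 4 fell (median 1.69), and the 8 passed in all 18 alternatives. Dbp, a PAR bZIP factor driven directly by the clock (chr7:45705088-45710203, plus strand), had 1.69, 1.13 and 0.176 CPM at 24 h and 128, 87.8, 51.8 and 39.8 CPM at 7 d (log2 fold change 6.25 ± 1.02 SE, adjusted p = 5.04e-05). Per3, a period gene, went from 2.14, 2.6 and 1.05 CPM to 61.4, 50.7, 13.4 and 16.5 CPM, a log2 fold change of 4.19. The Rev-erb receptors Nr1d1 and Nr1d2, which repress Arntl, rose by 2.66 and 2.40, and the further PAR bZIP genes Tef and Hlf by 2.50 and 3.42 on the log2 scale.

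Bhlhe41, a repressor of clock targets, rose by 5.71 but overlapped, with 7 d replicate 4 at 0.0766 CPM. The genes that fell were Arntl, the positive factor BMAL1, its partner Clock, Per1 and Nfil3, a repressor of D-box promoters. Arntl had 45.2, 34.3 and 38.4 CPM at 24 h and 3.15, 4.59, 25.5 and 16.6 CPM at 7 d, so replicates 1 and 2 stood far below replicates 3 and 4. Its log2 fold change of -1.65 (adjusted p = 0.0329) lost its call in 10 of 18 alternatives, with adjusted p up to 0.0925 when a library was left out. Clock, at -1.02 (adjusted p = 0.00106), lost its call in 8. Per3 and Hlf, at 32.8, 22.6, 6.12 and 8.05 CPM at 7 d, showed the same split of the 7 d libraries in the other direction. In healthy HSCs Dbp was at a mean of 15.5 CPM and Arntl at 41.3 CPM. The hour of collection is not given in the sources used here, and its part in these differences was not tested.

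The elements searched on both strands of clock promoters were the E-box CACGTG that BMAL1 and CLOCK bind, and the D-box TTATGTAA that PAR bZIP factors bind. The E-box was in 2 of the 7 matched clock genes that rose (28.6%) and in 5 of 14 matched members (35.7%), against 8.09% of all genes and 7.15% of all promoters. The D-box was in 1 of 14 (7.14%), against 1.11% of all genes. That gene was Per3, which held it at 2 positions, while Tef held the E-box in each of 2 promoters. The 250 bases before the start are shown for Per3 (chr4:151044666-151044915, minus strand) and for both promoters of Tef (chr15:81802423-81802672 and chr15:81811164-81811413, plus strand), from RefSeq on GRCm38.p6, with D-boxes or E-boxes in capitals.
Per3: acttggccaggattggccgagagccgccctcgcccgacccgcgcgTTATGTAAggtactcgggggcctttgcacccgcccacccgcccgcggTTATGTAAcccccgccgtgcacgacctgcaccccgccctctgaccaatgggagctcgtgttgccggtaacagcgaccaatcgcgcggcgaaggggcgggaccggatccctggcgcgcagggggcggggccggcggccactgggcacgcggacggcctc
Tef, upstream promoter: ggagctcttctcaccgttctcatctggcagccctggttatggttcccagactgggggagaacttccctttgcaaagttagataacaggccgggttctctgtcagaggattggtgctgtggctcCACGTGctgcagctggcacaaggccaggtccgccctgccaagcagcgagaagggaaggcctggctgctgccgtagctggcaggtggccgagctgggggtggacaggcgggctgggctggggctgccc
Tef, downstream promoter: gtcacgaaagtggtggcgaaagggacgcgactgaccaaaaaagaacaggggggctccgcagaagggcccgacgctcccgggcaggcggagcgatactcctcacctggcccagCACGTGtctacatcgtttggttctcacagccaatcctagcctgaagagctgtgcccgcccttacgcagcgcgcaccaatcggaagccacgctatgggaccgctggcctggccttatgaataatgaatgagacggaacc

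Cytokine genes moved in both directions. Of 30 chemokines and cytokines 12 rose and 7 fell (median 0.63). Besides Il11, the gp130 cytokine gene Lif fell by 3.62 on the log2 scale (adjusted p = 0.000403). The eosinophil chemokine Ccl11 went from 73.4, 74 and 51.7 CPM to 3.32, 1.23, 7.16 and 6.97 CPM (log2 fold change -3.82, adjusted p = 2.86e-06), and the monocyte chemokine Ccl7 had a log2 fold change of -1.70. Osm, oncostatin M, another gp130 cytokine, which macrophages and neutrophils make, rose from 0.801, 0.347 and 0.439 CPM to 19.4, 16.6, 23.9 and 16.4 CPM (log2 fold change 5.14 ± 0.70 SE, adjusted p = 4.59e-06). Il1b and Tnf, inflammatory cytokines of macrophages, rose by 4.15 and 3.60 on the log2 scale. Cxcl12, which HSCs express in quantity, rose by 1.56 (adjusted p = 3.64e-05), from 3460, 2150 and 2170 CPM to 7620, 7480, 6180 and 9320 CPM, beside a healthy mean of 7678 CPM.

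In the TGF-beta, activin and BMP pathway 8 of 31 genes fell (25.8%) and 5 rose (16.1%), with a median of -0.39. The shares of all genes tested were 9.24% and 17.8%, and 5 members fell without 24 h replicate 2. Tgfb1 had 316, 301 and 300 CPM at 24 h and 77.6, 114, 124 and 114 CPM at 7 d (log2 fold change -1.51 ± 0.25 SE, adjusted p = 5.89e-05), while Tgfb2 went from 8.01, 8.33 and 8.08 CPM to 19.7, 20.4, 24.1 and 25.1 CPM (log2 fold change 1.45, adjusted p = 0.000879). Inhba, the subunit of activin A, fell by 3.03, and Bmp10, a BMP of HSCs that acts on endothelium, fell by 2.22 on the log2 scale. Bmper, a secreted BMP modulator, fell from 286, 178 and 181 CPM to 13.3, 15, 22.4 and 12.3 CPM (log2 fold change -3.77 ± 0.25 SE, adjusted p = 6.69e-10). Ltbp2, a matrix protein of the latent TGF-beta binding family, rose by 5.97 (adjusted p = 2.34e-07), from at most 5.96 CPM to 226, 271, 221 and 167 CPM.

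Of 28 genes of PDGF and other growth factor signalling 11 rose and 4 fell (median 0.80). Pdgfd, a ligand of the PDGF receptor beta of HSCs, rose from 1.34, 1.04 and 1.67 CPM to 15, 19.9, 25.9 and 40.1 CPM (log2 fold change 4.21 ± 0.40 SE, adjusted p = 5.04e-08), beside a healthy mean of 21.7 CPM. Ptn, the heparin-binding factor pleiotrophin, rose by 5.79 on the log2 scale. Igf1, insulin-like growth factor 1, had a log2 fold change of 2.48 (adjusted p = 0.0053) but overlapped, with 113, 111, 13.8 and 306 CPM at 7 d against 32.9, 17.4 and 22.8 CPM. Among 30 interferon-stimulated genes 4 fell (13.3%, against 9.24% of all genes tested) and none rose (median -0.21). Isg15, a ubiquitin-like modifier, was at -2.06 (adjusted p = 5.54e-07) and Bst2, tetherin, at -2.41 (adjusted p = 1.89e-05). Of 20 antioxidant genes under NRF2, 2 rose (10.0%) and 2 fell (10.0%, median -0.30). For 26 genes of cholesterol and fatty acid synthesis, 6 rose (23.1%) and 4 fell (15.4%, median -0.07). The shares of all genes tested were 17.8% and 9.24%.

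Markers of several other cell types, macrophages and hepatocytes among them, rose in these sorted samples. All 16 macrophage markers rose, with a median log2 fold change of 4.41, and their summed level was 181 to 286 CPM at 24 h, 398 to 733 CPM at 72 h, 163 to 577 CPM in healthy HSCs and 4950 to 13000 CPM at 7 d. Lyz2, the lysozyme of myeloid cells (chr10:117277331-117282321, minus strand), had 50.5, 54.7 and 27 CPM at 24 h and 3470, 5050, 8580 and 4520 CPM at 7 d (log2 fold change 6.94 ± 0.72 SE, adjusted p = 1.78e-07). Its neighbour Lyz1, which can share reads with Lyz2, had no count at 24 h and 78.7, 114, 193 and 115 CPM at 7 d, at least 474-fold higher. Adgre1, the macrophage antigen F4/80, and Csf1r, the receptor of the macrophage growth factor CSF1, rose by 5.88 and 5.24 on the log2 scale.

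The highest log2 fold change among the named genes with counts at 24 h belonged to Gpnmb, a glycoprotein of lipid-associated and scar-associated macrophages (chr6:49036546-49070929, plus strand). It had 2.4, 1.39 and 0.966 CPM at 24 h and 423, 1160, 1730 and 494 CPM at 7 d, and its log2 fold change was 9.22 ± 1.21 (SE, adjusted p = 3.48e-06). The mean was 24.6 CPM at 72 h and 1.24 CPM in healthy HSCs. Trem2, a lipid receptor of the same macrophages, had at most 0.801 CPM at 24 h and 22.9, 31.2, 123 and 27.4 CPM at 7 d, with replicate 3 far above the others (log2 fold change 6.82, adjusted p = 1.05e-05). Of 12 markers of monocyte-derived macrophages 11 rose (sums 300 to 382 against 1590 to 6480 CPM, median 5.11, or 4.41 with genes at 0 set to their bound). Their sum was 196 to 354 CPM in healthy HSCs. Of 7 markers of Kupffer cells, the resident macrophages, 6 rose (205 to 251 against 1190 to 2920 CPM, median 3.30). In healthy HSCs the Kupffer sum was 678 to 1340 CPM, above every 24 h library and overlapping with the 7 d range. Clec4f, a lectin of Kupffer cells, rose by 3.30 (adjusted p = 0.00318), whereas Folr2 had no count in any library of either group. Chil3, a monocyte marker, was at 0 at 24 h.

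Of 17 genes of MHC class II and antigen presentation 10 rose and none fell (median 2.93), although 3 fell without 7 d replicate 3. Their summed level was 10100 to 12600 CPM at 24 h and 6070 to 8590 CPM at 7 d, and the class I genes H2-K1 and H2-D1 each had a log2 fold change of -0.97, short of 2-fold (adjusted p = 0.00514 and 0.00498). Cd74, the invariant chain of MHC class II, was at 0 at 24 h and at 33.2, 40.9, 78.2 and 181 CPM at 7 d, at least 316-fold higher, and H2-Aa, a class II alpha chain, rose by 5.23 (adjusted p = 1.86e-06). Of 9 B cell markers 8 rose (4.39 to 5.43 against 141 to 335 CPM, median 5.07), among them Ighm, the heavy chain of immunoglobulin M, by 6.85, and Cd79a, part of the B cell receptor, by 4.07 on the log2 scale. Of 11 T and NK cell markers 7 rose (1.58 to 5.43 against 25.9 to 48.0 CPM, median 4.21, or 3.40 at the bound). Cd3d, Cd8a, Nkg7, Gzma and Ncr1 were at 0 at 24 h, and Ncr1, the NK receptor NKp46, was at least 19.7-fold higher at 7 d. Of 7 neutrophil markers 2 rose (28.6%, against 17.8% of all genes tested, median 1.31), with sums of 4.13 to 21.8 against 35.0 to 58.8 CPM. Ly6g was at 0 at 24 h, Camp at 7 d and Elane in both groups. Of 19 complement genes 9 rose and none fell (median 1.06), with C3, the central component, rising by 5.52 (adjusted p = 5.15e-07), from 14.3, 7.64 and 16.6 CPM to 635, 787, 468 and 467 CPM.

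Hepatocyte genes were lowest at 24 h. Of 20 hepatocyte markers 15 rose and none fell (median 4.39), and the sum was 200 to 560 CPM at 24 h, 1640 to 3980 CPM at 72 h, 3030 to 5110 CPM at 7 d and 961 to 7160 CPM in healthy samples. Bhmt, betaine-homocysteine methyltransferase, had 0.178, 0.608 and 0.702 CPM at 24 h and 196, 160, 98.8 and 177 CPM at 7 d (log2 fold change 8.28 ± 1.17 SE, adjusted p = 8.47e-06), and its log2 fold change of 7 d over healthy was 0.37 (adjusted p = 0.758). Cyp2e1, the cytochrome that bioactivates CCl4, rose by 6.52 (adjusted p = 1.4e-05), from 2.58, 1.13 and 0.527 CPM to 77.6, 63.7, 210 and 172 CPM, and at 72 h its mean was still 4.6 CPM. Alb, serum albumin, had 1.96, 12.8 and 78.5 CPM at 24 h, a wide range, and 976, 584, 477 and 592 CPM at 7 d (log2 fold change 4.40, adjusted p = 0.0013). Car3 (carbonic anhydrase 3) and Uox (urate oxidase), further abundant liver genes, rose by 7.59 and 6.71 on the log2 scale. Of 20 acute phase genes and metallothioneins 11 rose and 3 fell (median 4.12), where Mt1 and Mt2 were among those that fell. The sum of this list did not rise, with 6420 to 10000 CPM at 24 h and 4510 to 6630 CPM at 7 d, and these ranges overlapped.

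Of the remaining cell types, 9 of 15 markers of sinusoidal endothelium rose and none fell (median 1.92), though the sums overlapped (947 to 1280 against 820 to 1520 CPM), and Kdr, the VEGF receptor 2, rose by 3.89 (adjusted p = 0.000135). Of 13 markers of mesothelial cells and portal fibroblasts 11 rose (70.1 to 118 against 532 to 820 CPM, median 2.51), with Msln and Lrrn4 at 0 at 24 h. Their sum in healthy HSCs was 151 to 239 CPM, between these ranges. Of 7 cholangiocyte markers 3 rose, 1 of them Spp1 (88.0 to 105 against 762 to 4800 CPM, median 2.34, Cftr at 0 at 24 h), and Spp1 made up most of the sum in every library. Of 7 markers of vascular smooth muscle 1 rose and 1 fell (14.3% each), against 17.8% and 9.24% of all genes tested. Their sums were 620 to 1020 CPM at 24 h and 268 to 313 CPM at 7 d (median 0.27). Rergl was at 0 in both groups and Actg2 at 0 at 7 d. Nrep, a neuronal regeneration protein also found in wound myofibroblasts, rose by 7.23 (adjusted p = 5.15e-07), from 2.14, 0.694 and 0.615 CPM to 201, 148, 186 and 161 CPM, as 1 of the genes with the largest rises. In bulk RNA, fewer cells of a type and less RNA per cell cannot be told apart. The part that macrophage, lymphoid, fibroblast or hepatocyte RNA takes in the rises of the collagens, Spp1, Mmp12, Osm, Il1b, Rbp4, Eln or the mitotic genes was not tested.

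**Figure D4:**
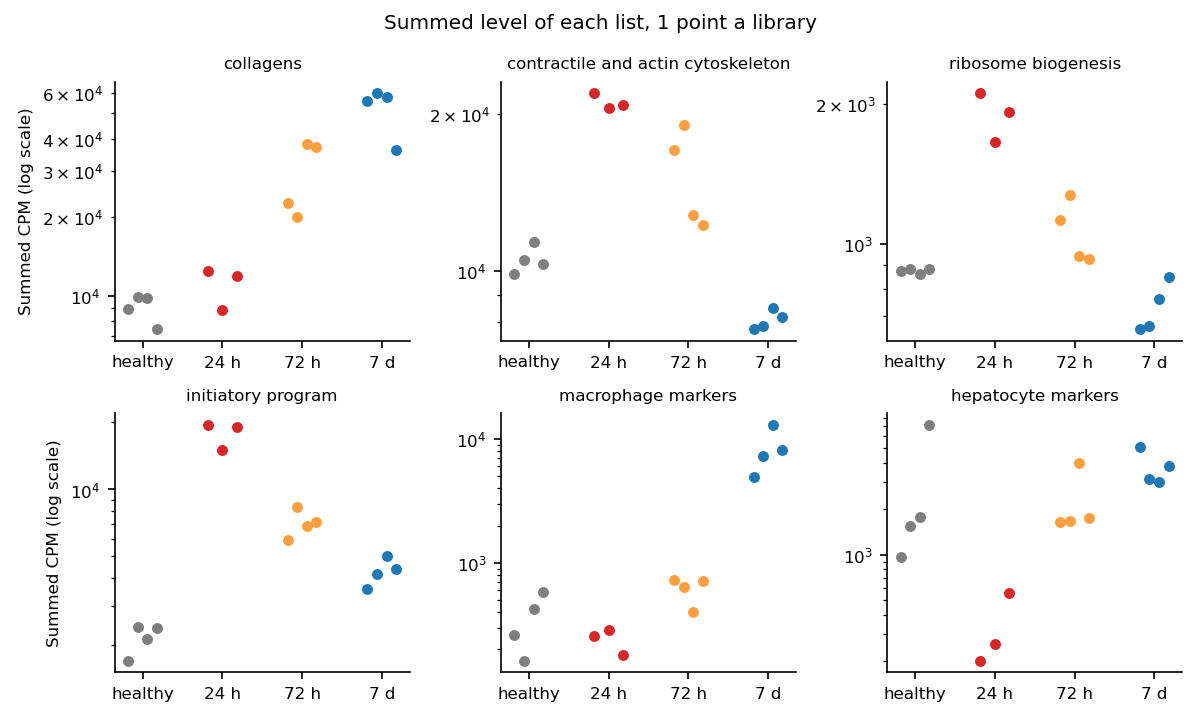
Summed CPM of 6 gene lists (y axis, logarithmic) in healthy, acute 24 h, acute 72 h and acute 7 d libraries (x axis), 1 point per library. The macrophage markers stand at 4950 to 13000 CPM at 7 d and at no more than 733 CPM elsewhere, and the initiatory program falls from 15100 to 19500 CPM at 24 h to 3580 to 5030 CPM at 7 d.

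The change from 24 h to the later time was then compared between a single injection and the repeated course, as the difference between acute 7 d over acute 24 h and chronic 72 h over chronic 24 h. The later times, the ages and the number of injections all differ between the courses. The part of the later time was not tested, although acute 72 h would allow it, and age and number of injections cannot be told apart. Of 18758 genes tested 2432 (13%) differed, 1798 (9.59%) with a more positive and 634 (3.38%) with a more negative change after the single injection. With only the deeper chronic libraries (replicates 3 and 4 of both groups) 1405 differed, and 1256 of these (51.6% of the 2432) were among the original ones, none in the opposite direction.

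Collagens differed in 16 of 26 cases, all more positive after a single injection, with medians of 2.24 (acute) and 0.35 (chronic). Col1a1 had a log2 fold change of 4.05 after 1 injection and of -0.42 after the course (adjusted p = 0.457 for the latter), a difference of 4.47 (adjusted p = 5.94e-06). The study reports Col1a1 among the genes upregulated in HSCs after the repeated course over healthy HSCs. A small change from chronic 24 h to chronic 72 h thus gives no measure of the collagen level against healthy. Metalloproteinases and inhibitors differed in 11 of 18 cases, likewise all more positive (medians 1.32 and -0.81). Of 29 matrix glycoproteins and proteoglycans 15 were more positive and 1 more negative (medians 1.10 and 0.13). Lox rose by 1.64 after 1 injection and had a log2 fold change of -3.0 after the course (difference 4.64, adjusted p = 4.13e-05). Acta2 was not called after 1 injection (-1.08) and had -7.09 after the course (difference 6.01, adjusted p = 0.000675).

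Of the 16 macrophage markers 14 differed, all more positive (medians 4.41 and -0.06). At chronic 24 h the group already held such transcripts. Gpnmb was at 556, 933, 86.1 and 100 CPM at chronic 24 h and 169, 197, 149 and 571 CPM at chronic 72 h, and its difference was 9.84 (adjusted p = 2.96e-05). Cthrc1 was at 7.94, 32.4, 74.1 and 51.2 CPM at chronic 24 h and 6, 5.14, 13.5 and 27.7 CPM at chronic 72 h, with a difference of 9.11 (adjusted p = 7.4e-05). Within both chronic groups replicates 1 and 2 are those of lower depth. Of the 20 hepatocyte markers 5 differed, all more positive (medians 4.39 and 1.68), and Slco1b2, a hepatocyte transporter without counts at acute 24 h, was at least 176-fold higher at acute 7 d.

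The initiatory program had negative medians in both courses (-1.68 and -2.02), with 7 members more positive and 11 more negative after a single injection. Among these Il11 fell by 7.37 after a single injection and fell by 4.01 after the course (adjusted p = 9.28e-06 for the latter), a difference of -3.36 (adjusted p = 0.0018). Of the fibrogenic program 69 members were more positive and 9 more negative (medians -0.62 and -1.95). Ribosome biogenesis genes were more negative in 7 of 30 cases and more positive in none (medians -1.39 and -0.60), and quiescence genes more negative in 10 and more positive in 2 of 30 (medians -0.05 and 0.79). Of these, Hhip fell by 3.51 after a single injection and had a log2 fold change of 0.34 after the course (adjusted p = 0.675), a difference of -3.85 (adjusted p = 0.00018). Syt12, a synaptotagmin, was among the genes with the most negative differences (-4.29, adjusted p = 1.41e-05), at 141, 75.3 and 63.6 CPM at acute 24 h and 6.31, 7.05, 20.9 and 15.3 CPM at acute 7 d.

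**Figure D5:**
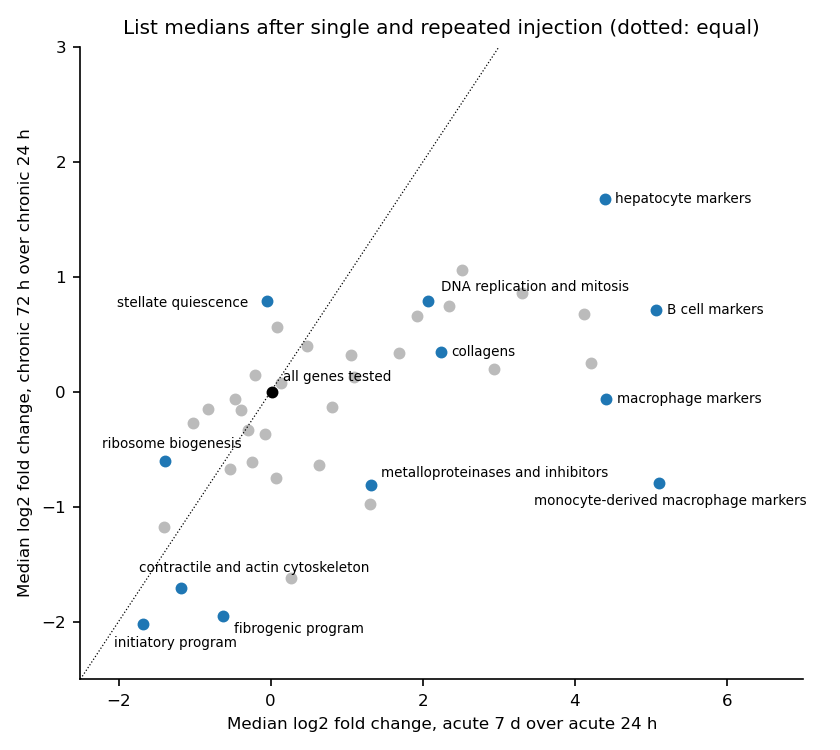
Median log2 fold change of each gene list at acute 7 d over acute 24 h (x axis) and at chronic 72 h over chronic 24 h (y axis), 1 point per list, with all genes tested in black and the dotted line where both are equal. Macrophage markers lie at 4.41 and -0.06 and collagens at 2.24 and 0.35, while the initiatory program is low on both axes.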

How the data were processed

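Bulk RNA-seq libraries of sorted HSCs were analysed from 1 table of raw counts per gene (53379 genes, 27 libraries, 0 columns left unmatched), which the authors deposited after aligning reads with STAR to GRCm38.p6 and quantifying them with StringTie. How StringTie output became whole counts is not given in the sources used here. Genes were named with GENCODE M21. Groups came from the labels. Genes passing edgeR's expression filter (18758) were fitted over all 27 libraries with TMM scaling and edgeR's robust quasi-likelihood test (edgeR 4.0.16, limma 3.58.1, R 4.3.3), with Benjamini-Hochberg adjustment over all of them. A call needed an adjusted p under 0.05 and over 2-fold change. A prior count of 2 entered the log2 CPM of the principal components and correlations, not the fitted fold changes, which used the default of edgeR's fit. The difference between courses was a contrast in the same fit. Per-library values are CPM on TMM-scaled totals. Libraries held 11.6 M to 13.1 M counts in the groups compared, and a gene at 0 was set against 3 counts.

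Named genes were the 10 with the largest change in each direction among called, non-overlapping genes whose mean log2 CPM reached 3, the 5 with the largest difference between courses in each direction, and members of 40 gene lists. Among the 10 rises, 1 gene model, Gm5096 (log2 fold change 8.49), was passed over in the text. Members and lists were chosen with earlier results of these data known. Promoters came from RefSeq (GRCm38.p6). The procedure was tested on simulated data, where 144 of 200 genes changed by 2 on the log2 scale were recovered with 7 false calls among 18249 genes. There the changes were split evenly by direction and all other genes kept the same mean in every group. The comparison itself called 5067 genes (27%), mostly higher, so the simulation does not test scaling or false calls under so many changes. Alternatives were other scaling (DESeq2 1.42.0 among them), filters, thresholds and sets of libraries, a replicate block, and leaving out each library. Of the remaining groups, chronic 14 d entered only the fit.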

Additional observations from a re-analysis of the deposited data

Results flagged for a closer look

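Of the 134 genes the text draws on, 5 had a 7 d library that stood apart from the other 3 by Dixon's criterion at its 95% level, while chance flags about 1 in 20 groups. Bst2 was lowest in replicate 2, at 43.3 CPM with the nearest library at 58.0 CPM. Col15a1 was lowest in replicate 4, at 30.2 CPM (nearest 71.8 CPM), as was Col1a2, at 4980 CPM (nearest 9020 CPM). Mt1 was highest in replicate 1, at 290 CPM (nearest 213 CPM), and Trem2 in replicate 3, at 123 CPM (nearest 31.2 CPM).

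For 80 of these genes the change from 24 h differed between the single injection (to 7 d) and the repeated course (to 72 h) in edgeR's test of that difference, 55 with a more positive and 25 with a more negative change after the single injection. Many of these genes were named for a large acute change and 10 for the difference itself, so their share is raised by that choice and is no result, beside 2432 of all 18758 genes tested (13%). For collagens and their processing the differences on the log2 scale were Col4a5 6.20, Col15a1 5.83, Col11a1 4.90, Col1a1 4.47, Col6a3 3.82, Col1a2 3.40, Col3a1 3.30, P4ha3 6.74, Lox 4.64 and Bmp1 1.44. For other matrix and remodelling genes the differences on the log2 scale were Cthrc1 9.11, Spp1 6.15, Ltbp2 6.13, Fmod 4.45, Fn1 3.09, Eln 2.84, Dpt 2.07, Mmp12 6.55, Mmp13 4.65, Mmp2 2.43 and Timp2 1.04. For macrophage and other immune genes the differences on the log2 scale were Lyz1 13.57, Cd74 10.87, Gpnmb 9.84, Lyz2 7.17, Trem2 7.05, Ighm 6.45, C3 5.79, Osm 5.72, Adgre1 5.45, Csf1r 5.28, H2-Aa 5.03, Tnf 4.65, Il1b 4.48 and Cd79a 3.53. For hepatocyte and endothelial genes the differences on the log2 scale were Slco1b2 8.73, Uox 4.83, Bhmt 4.52 and Kdr 3.00. For clock genes the differences on the log2 scale were Bhlhe41 6.13, Dbp 4.53, Per3 2.53, Tef 2.02 and Nr1d1 1.89. For the remaining genes with a more positive change they were Nrep 7.72, Acta2 6.01, Ptn 5.07, Pparg 5.06, Pmaip1 3.87, Dhrs3 3.02, Top2a 2.85, Mki67 2.65, Pdgfd 2.28, Tgfb2 2.14 and Sesn1 1.84. For genes with a more negative change they were Rpl32 -6.86, Cdkn1a -5.29, Gm10800 -4.67, Gm10801 -4.47, Syt12 -4.29, Mt2 -4.21, Hhip -3.85, Fosl1 -3.67, Mt1 -3.56, Il11 -3.36, Fcna -3.26, Alpl -3.09, Ccl11 -2.71, Tnfrsf12a -2.12, Ier3 -2.07, Bst2 -1.87, Tubb4b -1.84, Isg15 -1.82, Ecm1 -1.75, Hgf -1.63, Per1 -1.60, Inhba -1.56, Nop56 -1.32, Atf4 -1.24 and Dusp1 -1.18. Fitted values of Lyz1, Cd74 and Slco1b2, which had no count at acute 24 h, depend on the default prior count of edgeR's fit and are no bound.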

How the results depend on the processing

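No call of the comparison between 7 d and 24 h turned direction under any of 18 alternatives. A test against a 2-fold minimum left 2055 genes higher and 546 lower, and with no fold minimum 3259 were lower (4234 higher). Leaving out single libraries gave 2935 to 3207 higher and 1531 to 1786 lower. Library size alone as the scale gave 3650 higher and 1416 lower (72.0% of calls higher, against 65.8%), a shift of 0.108 in the median log2 fold change, and DESeq2 size factors gave 3399 and 1647. DESeq2's own test called 3586 higher and 1706 lower. The number of genes that differed between courses was 1799 to 2515 without single libraries, with the lowest value without acute 24 h replicate 2, and 1405 with the deeper chronic libraries alone, a setting chosen after seeing the data. Among named genes, Arntl lost its call in 10 alternatives, Ccnd1 in 9, Clock in 8, Dusp1 in 3 and Asns and Lox in 2 each. Genes with 3 counts or fewer in a group limit how precisely their change can be given, and intervals from counts would cover counting error only.

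The labels do not say that the replicate numbers pair the samples. Deviations of same-numbered libraries from their group means correlated at 0.009, -0.041 and -0.09, but with so few libraries these values cannot exclude a pairing. With the number as a replicate block 3294 genes were higher, 1715 lower and 2431 differed between courses, and Hspa5 was called (-1.03, adjusted p = 0.0109).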
